A study of Homo sapiens with 27 samples.

Results

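The Ly6/uPAR family genes LY6D, LY6K, LY6E, LYPD3, LYPD1, SLURP1, CD59 and PSCA, which are 8 of the 24566 genes in the count table, were followed through RNA-seq of 2 human cancer cell lines. The group was selected on 1 measured contrast, because the level of LY6D was over 100-fold lower in doxorubicin-treated than in untreated A431 cells, and the other 7 genes were added as relatives that encode surface or secreted proteins with the same fold. The values of that contrast are therefore described here without a test.

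A431 is an established line from a human epidermoid carcinoma (a squamous skin tumour), and MDA-MB-231 is an established line from a human breast adenocarcinoma. All cells were taken at 48 h, in 9 groups of 3 libraries. The 5 A431 groups comprised untreated cells, a vehicle control, and cells given doxorubicin, Compound Kushen Injection (CKI, an injectable extract of the roots of Kushen and Baituling, at 1 mg/ml) or both. MDA-MB-231 cells were left untreated or treated with CKI at the same dose, with 5-fluorouracil (5-FU) at 10 ug/ml, or with both. Doxorubicin is an anthracycline that intercalates into DNA and traps topoisomerase II, and 5-FU is a pyrimidine analogue that blocks thymidylate synthesis. The doxorubicin dose of each library and the nature of the vehicle are not given here, because the labels do not assign a dose to libraries or name the vehicle. Each line stands for 1 cell population, and the labels do not say whether the 3 libraries of a group came from separate cultures, so the p-values measure the spread between these libraries, which may be technical.

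Ly6/uPAR proteins share a compact, cysteine-rich fold in which disulphide bonds hold 3 loops like fingers. Most are tied to the outer leaflet of the plasma membrane by a glycosylphosphatidylinositol (GPI) anchor, and a few, such as SLURP1, are secreted. Stratified squamous epithelia and their tumours carry several of them on the cell surface, and some members bind nicotinic acetylcholine receptors, integrins or complement proteins. On GRCh37, 5 of the 8 genes lie in 1 cluster on chromosome 8, in the order PSCA (143751726 to 143764143, forward strand), LY6K (143781529 to 143786545, forward), SLURP1 (143822367 to 143823824, reverse), LY6D (143866298 to 143867955, reverse) and LY6E (144099399 to 144105249, forward). The other 3 are LYPD1 on chromosome 2 (133400859 to 133429152, reverse), CD59 on chromosome 11 (33724556 to 33758025, reverse) and LYPD3 on chromosome 19 (43964939 to 43969760, reverse).

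Total counts were 17757206 to 21756536 per A431 library and 19871048 to 22809339 per MDA-MB-231 library, so that 3 counts corresponded to 0.133 to 0.186 CPM (the count scaled to the size of the library), which is taken as the floor of detection and covers counting error only. Levels are CPM with TMM normalization over the 27 libraries. The 7 epithelial and keratinocyte markers, among them KRT5, TP63 and EGFR, summed to between 6750 and 9020 CPM in A431 and between 166 and 371 CPM in MDA-MB-231. The 5 mesenchymal markers set for MDA-MB-231 (VIM, ZEB1, CD44, SNAI2 and SPARC) summed to between 1550 and 2930 CPM there and between 593 and 1220 CPM in A431, where CD44 made up most of the sum at group means of 549 to 1140 CPM. ZEB1 had group means of 60.2 to 95.9 CPM in MDA-MB-231 and under 1 CPM in A431, and VIM of 718 to 1730 CPM and 2.89 to 35.8 CPM, whereas SNAI2 was at similar levels in both lines and SPARC at no more than 2.99 CPM in either. The hormone receptors ESR1 and PGR, which this line lacks, summed there to at most 0.417 CPM. PTPRC, a surface phosphatase of blood cells, was at 0 in all untreated, vehicle control and CKI-treated A431 libraries and had means of 1.35 ± 0.2 CPM (SD, n = 3) under doxorubicin and 1.63 ± 0.389 CPM under CKI plus doxorubicin, and the part of this shift in the results was not tested. Replicate 1 of untreated MDA-MB-231 stood apart from its group, with deviations from the group mean that correlated with transcript GC content at a Spearman rho of -0.59 against 0.48 and 0.49 in replicates 2 and 3, and in the A431 vehicle control replicate 1 (-0.50) and replicate 3 (0.55) lay on opposite sides. Where leaving out one of these libraries moved a member's value by over 1.5 times or ended a call, the value without it stands beside the result.

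**Figure D1:**
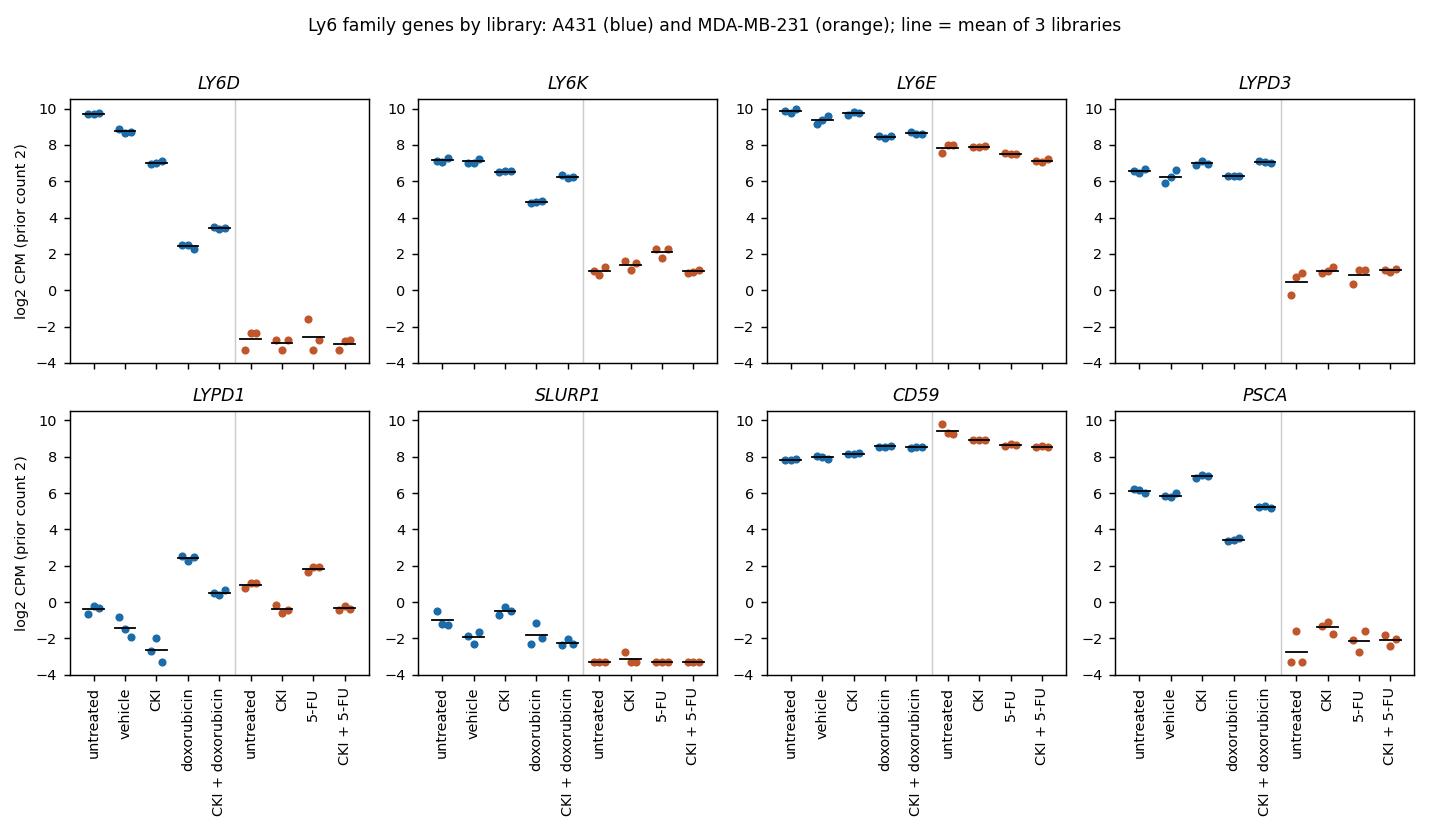
Log2 CPM (prior count 2) of the 8 genes in each of 27 libraries, with 1 panel per gene, the 5 A431 groups in blue, the 4 MDA-MB-231 groups in orange, and a line at the mean of 3 libraries. LY6D ran from 840 CPM in untreated A431 to 5.26 CPM under doxorubicin, LYPD1 was highest under doxorubicin, and LY6D, SLURP1 and PSCA lay near the floor in every MDA-MB-231 group.

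Compared per kilobase of exon, LY6D and LY6E were the most abundant members in untreated A431. The length used was the union of all annotated exons of a gene, 10.557 kb for CD59 and 1.498 kb for LY6D. Where this union is longer than the transcripts present, the share of that gene is understated. The mean levels of the 8 genes summed to 1050 CPM per kilobase there, of which LY6D made up 53.4% and LY6E 33.7%. The sum was 663 in the vehicle control, 584 under CKI, 290 under CKI plus doxorubicin and 219 under doxorubicin. The share of LY6D was 43.3%, 14.8%, 2.45% and 1.60% in the same order, while that of LY6E was 38.3%, 55.8%, 52.8% and 60.7%. In untreated MDA-MB-231 the sum was 157 CPM per kilobase, and LY6E (56.2%) and CD59 (42.7%) made up nearly all of it. Among bulk samples such as these, fewer cells with a transcript and less transcript per cell cannot be told apart.

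**Figure D2:**
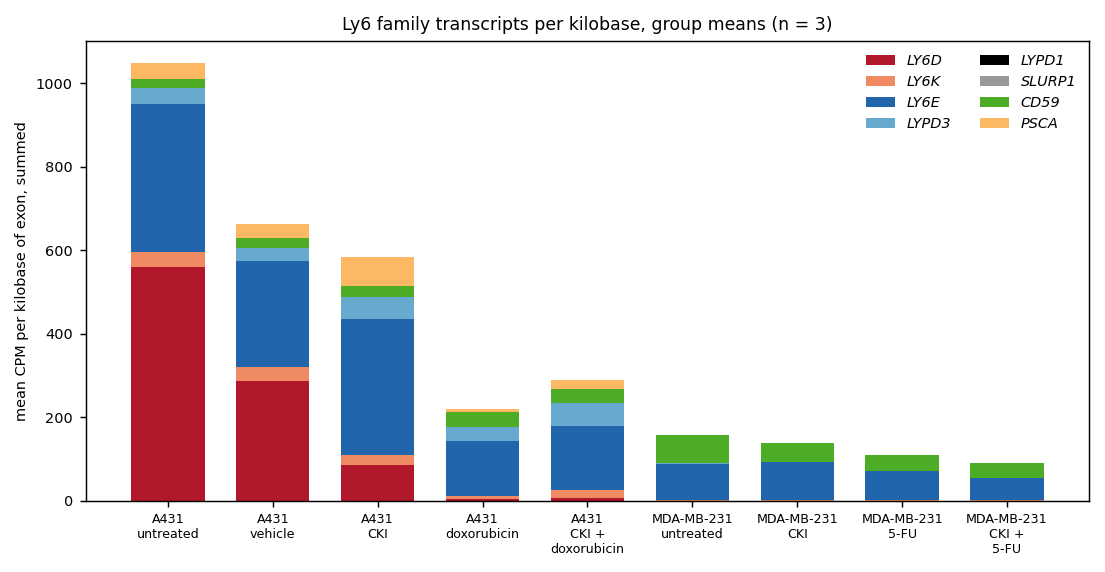
Mean CPM per kilobase of exon (union of all annotated exons) of the 8 genes, stacked, for each of the 9 groups (n = 3 libraries). The untreated A431 bar reaches 1050 and is mostly LY6D and LY6E, the doxorubicin bar reaches 219 with LY6D at 1.60% of it, and the MDA-MB-231 bars hold almost only LY6E and CD59.

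Doxorubicin against untreated A431 is the contrast that chose the group. LY6D, a GPI-anchored marker of squamous epithelium, had 824, 820 and 875 CPM in the untreated libraries and 5.60, 5.42 and 4.77 CPM in the doxorubicin libraries, or 13744 to 14902 counts against 93 to 112. The groups were far apart, with a log2 difference of -7.37 (165-fold lower). With the vehicle control in place of the untreated cells the difference was -6.42. Of all genes, 3 were over 100-fold lower in this contrast, namely LY6D, FAM30A (153-fold) and RXRA (145-fold), and the nearest gene outside the threshold was ANTKMT (93.4-fold).

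The other members did not share 1 direction in that contrast. PSCA, a GPI-anchored antigen of prostate, bladder and stomach epithelium, had 73.2, 71.1 and 63.6 CPM in untreated cells and 10.2, 10.4 and 11.5 under doxorubicin (log2 difference -2.74). LY6K, a GPI-anchored antigen known from testis and tumours, had 138, 133 and 156 CPM against 28.1, 29.2 and 29.6 (-2.35). LY6E, a broadly expressed GPI-anchored protein known for modulating the entry of viruses, had 931, 862 and 1010 CPM against 357, 332 and 361 (-1.47). These 3 genes and LY6D were lower in every doxorubicin library than in any untreated library. LYPD3, a GPI-anchored protein of suprabasal keratinocytes, differed by -0.32, and SLURP1, a secreted ligand of nicotinic receptors, differed by -1.05 with overlapping libraries at 2 to 10 counts. CD59, which stops the complement membrane attack complex on the cell's own membrane, had 224, 230 and 233 CPM against 375, 376 and 390 (0.68). LYPD1, a GPI-anchored modulator of nicotinic receptors, had 0.539, 0.771 and 0.684 CPM against 5.65, 4.71 and 5.54 (2.93). Both were higher in every doxorubicin library. The median difference of the 8 genes was -1.26 against 0.02 over all genes tested, and because these values selected the group, nothing is read from it.

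The effect of doxorubicin was next examined in libraries that the selection did not use, by comparing CKI plus doxorubicin with CKI alone. Of the 8 members, 5 were differentially expressed (adjusted p under 0.05 and absolute log2 fold change over 1 by edgeR's quasi-likelihood test), where 25.7% of all 15881 genes tested were. LY6D, LY6E and PSCA fell, LYPD1 rose, and SLURP1 was the remaining gene called. The filter on low counts asked for 10 counts at the median depth in 3 libraries. It was met in all 15 libraries by 6 members, of which LY6D, LY6E and PSCA were called. LYPD1 met it in 8 libraries, 6 of them with doxorubicin, and SLURP1 in 3, of which 2 were CKI libraries, so that the filter favoured their calls and the share of members called is not read against that of all genes.

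LY6D had 122, 128 and 138 CPM under CKI and 10.9, 10.3 and 10.6 CPM under CKI plus doxorubicin. All 3 libraries with doxorubicin lay far under all 3 without it. The log2 fold change was -3.56 (SE 0.078, 11.8-fold lower, adjusted p = 3e-20 by edgeR), and it remained past the threshold in every alternative tried. PSCA had 112, 130 and 121 CPM under CKI and 38.1, 39.3 and 35.5 CPM with doxorubicin added, and it fell by 1.63 on the log2 scale (SE 0.073, adjusted p = 6.6e-15 by edgeR). The exons of PSCA share 367 bp with those of JRK on the opposite strand, and the libraries are unstranded. JRK had a log2 fold change of -1.03 in this comparison (adjusted p = 2.8e-10 by edgeR) and -1.08 in the untested doxorubicin contrast. The part of shared reads in the PSCA values was not tested.

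LY6E had 807, 905 and 868 CPM under CKI and 424, 391 and 393 CPM under CKI plus doxorubicin, with no overlap. Its log2 fold change was -1.04 (SE 0.079, adjusted p = 6.9e-11 by edgeR), just past the threshold of 1. It was -0.99 with DESeq2 or with RLE factors, -0.84 with library size alone and -0.61 with offsets for GC content, which ends the call although the adjusted p-values stayed small. LY6E transcripts are GC-rich (64.2% against a median of 48.0% over all genes), as are those of PSCA (63.2%) and LY6D (62.3%), and with the same offsets LY6D was at -3.21 and PSCA at -1.24.

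SLURP1 was barely detected. It had 10, 14 and 11 counts under CKI and 2, 3 and 2 under CKI plus doxorubicin, a log2 difference of -2.32 (SE 0.51), given without a p-value because the gene met the filter through the higher group. The ratio of the summed counts was 5.41 with a 95% exact binomial interval of 2.37 to 14.4, which covers counting error only. With these groups alone in the fit SLURP1 did not pass the filter on low counts.

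LYPD1 moved the other way. It had 1, 3 and 0 counts under CKI and 28, 25 and 29 counts under CKI plus doxorubicin. Every library with doxorubicin was above every library without it. The log2 difference was 4.17 (SE 0.48), and the ratio of summed counts was 18.9 (95% exact binomial interval 7.12 to 71.1). Outside the combination group 5 A431 libraries met the filter, among them all 3 with doxorubicin alone. Because LYPD1 met the filter through libraries with doxorubicin, no p-value is given. The exons of LYPD1 share 1180 bp with those of GPR39 on the opposite strand, and in these unstranded libraries reads from the shared stretch cannot be assigned to either gene. GPR39 had means of 5.72 CPM under CKI and 4.59 CPM under CKI plus doxorubicin, a log2 fold change of -0.27 (adjusted p = 0.09 by edgeR), so the count of the partner was not higher where LYPD1 was.

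The remaining 3 members stayed under the threshold of 1. LY6K had 90.5, 92.9 and 94.4 CPM under CKI and 79.5, 70.7 and 74.8 with doxorubicin added, a log2 fold change of -0.25 (SE 0.072, adjusted p = 0.0036 by edgeR) that was -0.05 (adjusted p = 0.53) with library size alone. CD59 was at 280 to 295 CPM and 355 to 377 CPM in these groups (0.41, SE 0.055, adjusted p = 6.7e-07 by edgeR), and at 0.62 with library size alone. LYPD3 overlapped between the groups, at 121 to 138 CPM and 130 to 140 CPM (0.12, SE 0.10, adjusted p = 0.29 by edgeR), and was at 0.36 (adjusted p = 8.4e-06) with GC offsets and 0.33 (adjusted p = 0.0058) with library size alone.

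**Figure D3:**
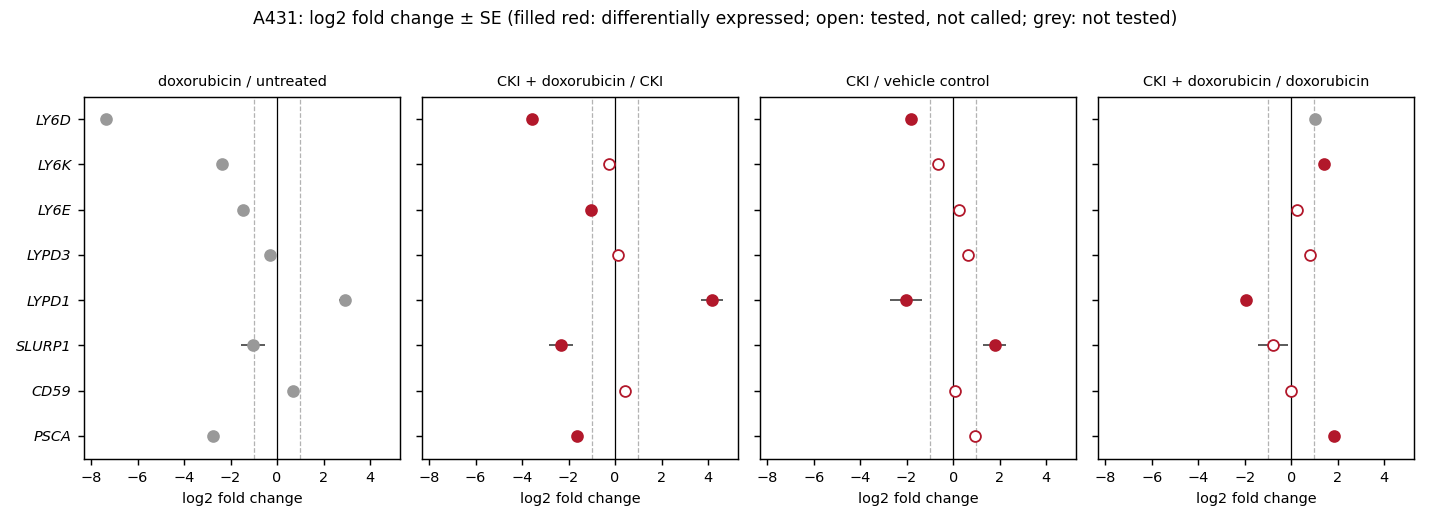
Log2 fold change with its standard error for the 8 genes in 4 comparisons of A431 groups, with dashed lines at the threshold of 1 in either direction. Filled red points passed both thresholds, open points were tested and not called, and grey points were not tested because the selection used those values. The red points of SLURP1 and that of LYPD1 in the second panel are not read as test results. There SLURP1 met the count filter through its higher group and LYPD1 through libraries with doxorubicin. LY6D was at -7.37 in the first panel, -3.56 in the second and -1.82 in the third, and LYPD1 was at 2.93, 4.17 and -2.03.

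CKI was compared with the vehicle control, which shares no library with the contrast of the selection. Of the 8 members, 3 passed both thresholds, where 19.5% of all genes tested did. SLURP1 is among the 3 and met the filter only with its CKI libraries, so the count is not read against that share. LY6D had 463, 400 and 424 CPM in the vehicle control and 122, 128 and 138 CPM under CKI, and the groups were clearly separated. It fell by 1.82 on the log2 scale (SE 0.064, 3.54-fold lower, adjusted p = 1e-16 by edgeR). LYPD1 had 8, 5 and 3 counts in the vehicle control and 1, 3 and 0 under CKI, a log2 fold change of -2.03 (SE 0.69, adjusted p = 0.013 by edgeR) with a ratio of summed counts of 4.10 (95% exact binomial interval 1.32 to 16.8). This call rests on single libraries, since without vehicle control replicate 1 the value was -1.58 (adjusted p = 0.093) and without CKI replicate 3 it was -1.52 (adjusted p = 0.057). SLURP1 had 3, 2 and 4 counts in the vehicle control and 10, 14 and 11 counts under CKI (log2 difference 1.79, SE 0.49), again without a p-value because of the filter. With these groups alone in the fit, LYPD1 and SLURP1 did not pass the filter on low counts.

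PSCA was just under the threshold in that comparison. It had 56.4, 54.5 and 63.6 CPM in the vehicle control and 112, 130 and 121 CPM under CKI, so that each CKI library was above each control library. The log2 fold change was 0.96 (SE 0.071, adjusted p = 4e-11 by edgeR), and it reached 1.01 with DESeq2 or RLE factors, 1.07 with library size alone, 1.01 without CKI replicate 1 and 1.02 without vehicle control replicate 3. PSCA shares 367 bp of exon with JRK on the opposite strand, and JRK had a log2 fold change of 0.38 (adjusted p = 3e-04 by edgeR). LY6K was at -0.66 (128, 129 and 153 CPM against 90.5, 92.9 and 94.4), LYPD3 at 0.63 (59.0, 76.7 and 96.9 CPM against 121, 138 and 124) and LY6E at 0.27 (575, 666 and 765 CPM against 807, 905 and 868), all with adjusted p-values under 0.05 by edgeR and no overlap between groups. The lowest vehicle control value of LYPD3 and of LY6E was that of replicate 1, and without it these values were 0.47 and 0.17. With GC offsets LY6E was at 0.08 (adjusted p = 0.15). CD59 was at 0.10 (adjusted p = 0.13 by edgeR), at 0.23 with GC offsets, at 0.21 with library size alone and at 0.05 without vehicle control replicate 3.

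Against untreated A431 cells, 1 of 7 members tested was differentially expressed under CKI, where 22.4% of all genes were. LYPD1 had 9, 14 and 11 counts in untreated cells and 1, 3 and 0 under CKI, and it fell by 3.20 on the log2 scale (SE 0.58, adjusted p = 3.5e-05 by edgeR, ratio of summed counts 9.49 with a 95% exact binomial interval of 3.38 to 36.8). With these groups alone in the fit it did not pass the filter, and no member was called. PSCA (0.72), LYPD3 (0.37) and CD59 (0.25) were higher in every CKI library than in any untreated library, and LY6K (-0.70) was lower in every one, all with adjusted p-values under 0.05 but within the threshold. LY6E, which was at 0.27 against the vehicle control, was at -0.19 against untreated cells (adjusted p = 0.031 by edgeR, overlapping libraries) at 0.05 with GC offsets and at -0.08 with library size alone. SLURP1 had a log2 fold change of 0.50 (adjusted p = 0.29 by edgeR). The LY6D value, -2.77, is given without a test.

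The vehicle control itself differed little from untreated cells over all genes, with 2.54% called, and 1 of 7 members tested was among them. LYPD1 was at -1.17 (SE 0.43, adjusted p = 0.032 by edgeR), but the call was lost in 4 of the 6 fits that left out 1 library, namely without untreated replicate 2 (-1.05) or replicate 3 (-1.15) and without vehicle control replicate 2 (-1.07) or replicate 3 (-0.90). LY6E was at -0.46 (adjusted p = 7.7e-05 by edgeR), with 575, 666 and 765 CPM under 862 to 1010 CPM in untreated cells, and at -0.03 (adjusted p = 0.75) with GC offsets. LY6D was lower in the vehicle control by 0.95 on the log2 scale, 400 to 463 CPM against 820 to 875 CPM, a difference given without a test. With GC offsets the LY6D difference was -0.56. SLURP1 was at -1.29 (adjusted p = 0.058), LYPD3 at -0.26 (0.055), PSCA at -0.23 (0.012), CD59 at 0.15 (0.029) and LY6K at -0.04 (0.69), all by edgeR. With GC offsets LYPD3 was at -0.01, PSCA at 0.17 and CD59 at 0.01, and LYPD3 was at -0.10 without vehicle control replicate 1 and at -0.45 (adjusted p = 5.2e-05) without replicate 3, where LY6K was at -0.12. LYPD1 did not pass the filter with these groups alone in the fit.

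When CKI was added to doxorubicin, 3 of 7 members tested were differentially expressed, where 14.9% of all genes were. This comparison shares the combination libraries with the comparison against CKI alone. PSCA had 10.2, 10.4 and 11.5 CPM under doxorubicin and 38.1, 39.3 and 35.5 CPM with CKI, and it rose by 1.84 on the log2 scale (SE 0.086, 3.58-fold, adjusted p = 2.9e-14 by edgeR). LY6K had 28.1, 29.2 and 29.6 CPM under doxorubicin and 79.5, 70.7 and 74.8 CPM with CKI, and it rose by 1.40 (SE 0.078, 2.64-fold, adjusted p = 4.9e-13 by edgeR). Neither gene overlapped between the groups. LY6K shares 3271 bp of exon with the antisense lncRNA LNCOC1, which was counted at only 0.303 and 0.341 CPM in these groups. JRK, the antisense partner of PSCA, was at 0.38 (adjusted p = 0.0008 by edgeR).

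LYPD1 fell in the same comparison, from 5.65, 4.71 and 5.54 CPM to 1.31, 1.21 and 1.47 CPM (log2 fold change -1.96, SE 0.21, adjusted p = 3.2e-08 by edgeR). GPR39 had a log2 fold change of 1.32 there (adjusted p = 4.6e-07 by edgeR), in the opposite direction. LYPD3 was higher in every combination library, at 140, 134 and 130 CPM against 77.6, 78.4 and 79.4, with a log2 fold change of 0.81 (adjusted p = 7.1e-07 by edgeR) that stayed within the threshold. LY6E was at 0.23 (adjusted p = 0.014), CD59 at -0.02 (0.75) and SLURP1 at -0.77 (0.30). LY6D had 10.9, 10.3 and 10.6 CPM with CKI and 5.60, 5.42 and 4.77 CPM without it, a difference of 1.04 given without a test.

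The doxorubicin effect could thus be read with and without CKI for each member, and the difference between the 2 effects holds the contrast of the selection, so it was not tested. It was 3.81 on the log2 scale for LY6D (-7.37 without CKI and -3.56 with it), 2.10 for LY6K (-2.35 and -0.25), 1.24 for LYPD1 (2.93 and 4.17), 1.11 for PSCA (-2.74 and -1.63), 0.42 for LY6E, 0.44 for LYPD3, -0.27 for CD59 and -1.27 for SLURP1. For LY6D, the level was 840 CPM in untreated cells, 130 CPM under CKI alone, 10.6 CPM in the combination and 5.26 CPM under doxorubicin. For LY6K the combination level of 75.0 CPM was close to that of CKI alone (92.6 CPM) and well above that of doxorubicin alone (29.0 CPM).

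In MDA-MB-231, LY6D, SLURP1 and PSCA did not pass the filter on low counts and were at or near the floor. LY6D had 0 to 5 counts, SLURP1 0 or 1 and PSCA 0 to 8 in any of the 12 libraries, so no change in them was detectable at this depth. The other 5 members were tested. LYPD1 fell when CKI was given, both alone and beside 5-FU, and LY6K rose under 5-FU.

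Under CKI, 1 of 5 members tested was differentially expressed, where 5.96% of all genes were. LYPD1 had 1.62, 1.97 and 1.95 CPM in untreated cells and 0.801, 0.555 and 0.649 CPM under CKI, with no overlap, and it fell by 1.47 on the log2 scale (SE 0.20, adjusted p = 0.00015 by edgeR). Its value without untreated replicate 1 was -1.56. GPR39 was at -0.50 there (adjusted p = 0.013 by edgeR). CD59 had 888, 628 and 607 CPM in untreated cells and 483, 492 and 488 CPM under CKI, a log2 fold change of -0.54 (SE 0.11, adjusted p = 0.0028 by edgeR). The highest of these values was that of replicate 1, and without it the log2 fold change was -0.34 (adjusted p = 6e-08). LY6K (0.36), LYPD3 (0.55) and LY6E (0.04) had overlapping libraries and adjusted p-values of 0.19, 0.16 and 0.80, and without untreated replicate 1 LYPD3 was at 0.27 and LY6E at -0.09.

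Under 5-FU, 1 of 5 members tested was differentially expressed, where 13.3% of all genes were. LY6K had 1.98, 1.70 and 2.35 CPM in untreated cells and 4.64, 3.26 and 4.64 CPM under 5-FU, and every 5-FU library was above every untreated one. It rose by 1.07 on the log2 scale (SE 0.19, adjusted p = 0.00042 by edgeR), close enough to the threshold that the call was lost without untreated replicate 2 (0.95) and without 5-FU replicate 1 or replicate 3 (0.99 each). LYPD1 had 3.05, 3.69 and 3.65 CPM under 5-FU, a log2 fold change of 0.91 over untreated cells (SE 0.15, adjusted p = 0.00034 by edgeR), and was called with library size alone (1.04). GPR39 went the other way, at -1.84 (adjusted p = 1.1e-06 by edgeR). CD59 had 395, 411 and 402 CPM under 5-FU, at -0.81 (SE 0.11, adjusted p = 7.2e-05 by edgeR) with untreated replicate 1 and -0.61 without it. LY6E was at -0.33 (adjusted p = 0.013), at -0.47 without that replicate, -0.21 with GC offsets and -0.20 (adjusted p = 0.094) with library size alone. LYPD3 was at 0.35 (adjusted p = 0.33), and at 0.06 without that replicate.

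When CKI was added to 5-FU, 2 of 5 members tested were differentially expressed, where 9.77% of all genes were. LYPD1 had 3.05, 3.69 and 3.65 CPM under 5-FU and 0.652, 0.751 and 0.663 CPM with CKI, and it fell by 2.32 on the log2 scale (SE 0.18, 4.98-fold lower, adjusted p = 1.1e-06 by edgeR). LY6K had 4.64, 3.26 and 4.64 CPM under 5-FU and 1.86, 1.90 and 2.08 CPM with CKI, and it fell by 1.10 (SE 0.19, adjusted p = 0.00043 by edgeR). Both genes were lower in every combination library, and GPR39 was at 1.71 (adjusted p = 3.3e-06 by edgeR). LY6E was at -0.38 (adjusted p = 0.008), CD59 at -0.10 (0.49) and LYPD3 at 0.22 (0.52).

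Compared with CKI alone, none of the 5 members tested was differentially expressed in the combination with 5-FU, where 3.81% of all genes were. By the adjusted p under 0.05 alone, without the threshold on the fold change, the edgeR test gave 2 of them. With both thresholds DESeq2 called 0, as edgeR did. The 2 genes are named next. They were LY6E, with 140, 132 and 151 CPM against 238, 238 and 242 under CKI (-0.75, SE 0.10, adjusted p = 0.00016 by edgeR, and -0.35 with GC offsets), and CD59 (-0.37, adjusted p = 0.021 by edgeR). LY6K was at -0.39 (adjusted p = 0.13) and LYPD3 at 0.02 (adjusted p = 0.97, and 0.28 with GC offsets), both with overlapping libraries. LYPD1 was at 0.06 with overlapping libraries, 0.652 to 0.751 CPM and 0.555 to 0.801 CPM. The difference between the CKI effects with and without 5-FU was tested as an interaction, in which 1 of 5 members was called, against 6.84% of all genes. It was LY6K, at -1.45 (SE 0.27, adjusted p = 0.002 by edgeR), which is the difference between -1.10 beside 5-FU and 0.36 alone. For LYPD1 the interaction was -0.85 (SE 0.28, adjusted p = 0.055 by edgeR), for CD59 0.44 (0.052), for LY6E -0.41 (0.043) and for LYPD3 -0.33 (0.56). Without untreated replicate 1 the interaction was 0.25 for CD59 (adjusted p = 0.00046) and -0.04 for LYPD3, and with GC offsets it was -0.15 for LY6E (adjusted p = 0.32).

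**Figure D4:**
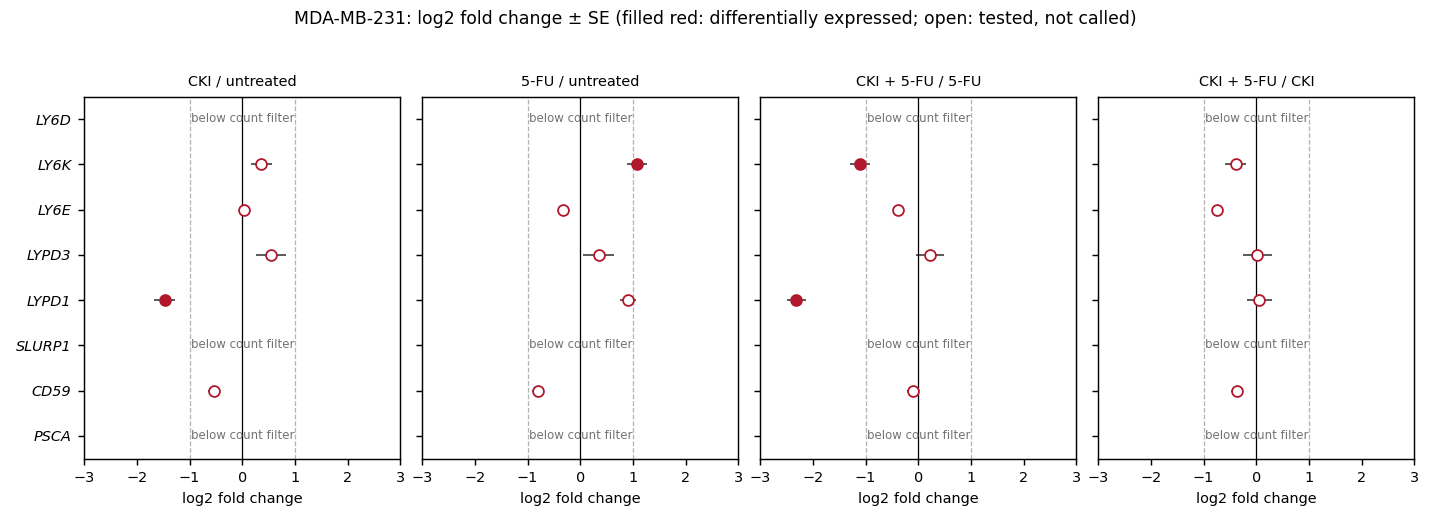
Log2 fold change with its standard error in 4 comparisons of MDA-MB-231 groups for the 5 genes that passed the count filter, with dashed lines at the threshold of 1 in either direction, filled points for differentially expressed genes and open points for genes tested and not called. LYPD1 was at -1.47 under CKI and -2.32 when CKI was added to 5-FU, and LY6K was at 1.07 under 5-FU and -1.10 when CKI was added.

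The 2 lines were set side by side in their untreated state. All 7 members tested were differentially expressed, where 41.7% of 16669 genes were, with 5 higher in A431 and LYPD1 and CD59 higher in MDA-MB-231. PSCA and SLURP1 passed the filter through their A431 libraries alone, so the count is not read against that share. LY6K had a mean of 142 ± 11.7 CPM (SD, n = 3) in A431 and 2.01 ± 0.324 in MDA-MB-231 (70.8-fold, log2 difference 6.15, SE 0.12, adjusted p = 4.2e-24 by edgeR). LYPD3 had 94.1 ± 7.97 and 1.37 ± 0.565 CPM (67.8-fold, adjusted p = 3.9e-20 by edgeR), and LY6E had 933 ± 71.7 and 233 ± 37.9 CPM (4.01-fold, adjusted p = 4.8e-16 by edgeR). PSCA had 3537 summed counts in A431 and 5 in MDA-MB-231, all 5 in replicate 2, a ratio of 853 with a 95% exact binomial interval of 365 to 2630. SLURP1 had 21 counts against 0, which makes it at least 8.44-fold higher in A431 when the floor of 3 counts is taken over the group. LY6D had 42723 counts against 4, a ratio of 12900 (interval 5030 to 47300) given without a test.

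CD59 had 229 ± 4.82 CPM in untreated A431 and 708 ± 157 in MDA-MB-231 (log2 difference -1.63, SE 0.088, adjusted p = 4.8e-15 by edgeR), and -1.44 without MDA-MB-231 replicate 1. LYPD1 had 0.665 ± 0.117 and 1.85 ± 0.201 CPM (-1.47, SE 0.25, adjusted p = 8.9e-06 by edgeR). The CKI effect differed between the lines for 1 of 7 members tested, where 17.6% of all genes were called. It was LYPD1, which had -3.20 in A431 and -1.47 in MDA-MB-231 in the fits of each line, with an interaction of -1.67 in the joint fit (SE 0.60, adjusted p = 0.031 by edgeR). That call was lost with DESeq2 (-1.77, adjusted p = 0.063), without A431 untreated replicate 2 (-1.54), without A431 CKI replicate 1 (-1.48) or replicate 3 (-1.16), and without MDA-MB-231 CKI replicate 1 (-1.52). CD59 had an interaction of 0.86 (SE 0.12, adjusted p = 1.6e-06 by edgeR), being higher under CKI in A431 and lower in MDA-MB-231, and 0.66 without MDA-MB-231 untreated replicate 1. LY6K was at -0.98 (adjusted p = 0.00014) and passed the threshold in 6 of the alternatives, which were library size alone (-1.01), the compared groups alone (-1.05) and 4 fits that left out A431 untreated replicate 1 (just past -1) or replicate 2 (-1.03), MDA-MB-231 untreated replicate 3 (-1.11) or MDA-MB-231 CKI replicate 2 (-1.12). PSCA was at -0.97 (adjusted p = 0.25), at -4.77 without MDA-MB-231 untreated replicate 2, which held the counts of that group, and at -0.46 without untreated replicate 1. LY6E was at -0.16 (adjusted p = 0.36), LYPD3 at -0.11 (0.83) and SLURP1 at -1.27 (0.44), and without MDA-MB-231 untreated replicate 1 LY6E was at -0.03 and LYPD3 at 0.17. The LY6D value, -1.81, is given without a test.

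In order of level, the groups of LY6D in A431 were untreated, vehicle control, CKI, CKI plus doxorubicin and doxorubicin, with no overlap between neighbours. LY6K had the order untreated, vehicle control, CKI, CKI plus doxorubicin and doxorubicin, in which untreated and vehicle control overlapped. LYPD1 was ordered as A431 doxorubicin, MDA-MB-231 5-FU, MDA-MB-231 untreated, A431 CKI plus doxorubicin, MDA-MB-231 CKI plus 5-FU, MDA-MB-231 CKI, A431 untreated, A431 vehicle control and A431 CKI, and the 2 MDA-MB-231 groups with CKI were the ones whose neighbouring ranges overlapped, together with MDA-MB-231 CKI and A431 untreated. For CD59 the 4 MDA-MB-231 groups and the 2 A431 groups with doxorubicin were the highest, and A431 untreated (229 CPM) the lowest.

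Promoter sequence is shown for LYPD1, CD59 and LYPD3, because these were the 3 members with a usable window. They were not picked by their response to any treatment. The RefSeq promoter table (GRCh38.p14) held windows for these 3 genes, of which the one nearest to the annotated gene start was taken, and each matched the GRCh37 genome exactly and at 1 place. They are written 5′ to 3′ on the strand of the gene, up to the base before the first annotated exon (which left off 53 of 250 bases for LYPD1), as chr2:133429153-133429349, chr11:33758026-33758275 and chr19:43969761-43970010, all on the reverse strand. Capitals mark matches, on either strand, to AP-1 (TGANTCA), the AhR core (GCGTG), the TATA box (TATAAA), the E box (CACGTG) or AP-2 (GCCNNNGGC).
LYPD1: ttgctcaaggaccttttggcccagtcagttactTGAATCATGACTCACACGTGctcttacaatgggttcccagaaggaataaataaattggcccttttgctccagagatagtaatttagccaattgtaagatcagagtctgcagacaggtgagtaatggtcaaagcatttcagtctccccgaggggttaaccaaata
CD59: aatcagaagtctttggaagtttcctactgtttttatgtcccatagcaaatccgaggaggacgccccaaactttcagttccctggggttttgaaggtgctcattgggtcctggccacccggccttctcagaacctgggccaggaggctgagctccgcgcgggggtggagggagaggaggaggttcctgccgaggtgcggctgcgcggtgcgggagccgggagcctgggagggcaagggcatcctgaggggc
LYPD3: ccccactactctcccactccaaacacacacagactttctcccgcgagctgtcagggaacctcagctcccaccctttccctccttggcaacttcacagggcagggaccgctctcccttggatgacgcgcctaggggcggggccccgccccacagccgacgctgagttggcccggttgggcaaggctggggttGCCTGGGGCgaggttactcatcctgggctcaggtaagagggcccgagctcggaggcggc
The LYPD1 window of 197 bases held 2 adjoining AP-1 matches followed directly by an E box match, none of which overlap, where 5.21% and 4.38% of 34788 promoters held at least 1 match to those motifs over the same length. The LYPD3 window of 250 bases held 1 AP-2 match (19.8% of promoters) and the CD59 window none of the 5. GC content was 43.1% for LYPD1, 62.0% for CD59 and 66.4% for LYPD3, against a median of 58.0% for all 250-base windows. A match describes the letters and not a binding site, and no match says only that these letters are not in the window.

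The wider family was read from 29 other Ly6/uPAR genes, of which 23 were in the table and 13 passed the filter in A431. Each count of them stands beside the share of all genes called in that comparison, and nothing particular to the list is read from it. In CKI plus doxorubicin against CKI, 4 were called higher and 3 fell (all genes 25.7%). LYPD2, a GPI-anchored relative, fell by 3.42 (SE 0.24, adjusted p = 1.4e-11 by edgeR) and LYNX1, a brake on nicotinic receptors, fell by 2.53 (adjusted p = 1e-11), while LY6G6C rose by 2.79 (adjusted p = 3.7e-09). TEX101, a germ cell protein, had 0.0174 and 0.455 CPM and met the filter only with its higher group. In CKI against the vehicle control 4 were called higher and 2 fell (all genes 19.5%). Of these, LYPD2 rose by 2.17 (adjusted p = 2.8e-09) and LY6G5C fell by 2.08 (adjusted p = 4.5e-05), all by edgeR, while SPACA4, a sperm surface protein, differed by 2.54 and met the filter only with its higher group. Against untreated A431 cells 3 were called higher and 2 fell under CKI (22.4%), none of the 13 was called in the vehicle control (2.54%), and 3 fell and none rose when CKI was added to doxorubicin (14.9%).

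In MDA-MB-231, where 9 of the 29 passed the filter, 1 rose and 1 fell under CKI (all genes 5.96%), namely CD177, a neutrophil antigen, at 1.94 and LY6G5C at -1.35, and 2 rose and 2 fell under 5-FU (13.3%), among them the nicotinic receptor modulators LYPD6B (-1.31) and LYPD6 (-1.21). When CKI was added to 5-FU 1 fell (9.77%), and against CKI alone 2 fell (3.81%). Between untreated lines 6 of 14 were higher in A431 and 3 lower (41.7%), with LYPD5, a relative of LYPD3, at 10.6 CPM against 0.13 CPM and LYPD2 at 1.67 CPM against 0.0153 CPM. In the interaction of cell line and CKI, 1 of 14 was called higher and 3 lower (17.6%). PLAUR, the urokinase receptor, was at 1.14 (adjusted p = 1.3e-10), PINLYP at -1.60 (0.002) and CD177 at -1.15 (0.0058), all by edgeR. For CKI by 5-FU none of 9 was called higher and 2 lower (6.84%). They were LYNX1 at -1.62 (adjusted p = 0.0099) and PINLYP at -1.24 (0.027), both by edgeR.

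The proteins that the members act on or need were read from 4 further lists. Of 16 nicotinic receptor subunits, 11 passed the filter in A431, and 5 were called in CKI plus doxorubicin against CKI (all genes 25.7%). CHRNA6 and CHRNA7 met the filter only with the combination libraries in which they were higher, and the other 3 were CHRNA2, CHRNB2 and CHRNE, which met it through doxorubicin libraries, so no direction is read from the count. CHRNA7, the subunit of the receptor that SLURP1 binds, was at 0.655 CPM with doxorubicin and 0.0343 CPM without it, the latter under the floor. In CKI against the vehicle control none of them was called (19.5%). Of 14 complement genes, 9 passed the filter, and 2 rose in CKI against the vehicle control (19.5%), namely C8G, a part of the membrane attack complex (2.31, adjusted p = 2.6e-06), and the fluid-phase inhibitor CLU (1.40, adjusted p = 5.3e-15). CD46 and CD55, which like CD59 protect the cell's own membrane, each rose by 1.18 in CKI against untreated A431 cells (adjusted p = 9.5e-13 and 4.4e-14), where CD59 was at 0.25. In that comparison 4 of the 9 were called higher and none lower (22.4% of all genes). CD46 and CD55 were not called against the vehicle control. In the interaction of cell line and CKI, CD55 was at 1.59 (adjusted p = 5.8e-12), with CD59 at 0.86, all by edgeR.

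Of 32 genes that build, attach or trim GPI anchors, 31 passed the filter in A431, and in CKI plus doxorubicin against CKI none rose and 5 fell, where 25.7% of all genes were called, with a median log2 fold change of -0.49 against 0.05 over all genes. PIGZ, a mannosyltransferase, fell by 1.59 (adjusted p = 1.4e-12) and GPLD1, a GPI-specific phospholipase, fell by 1.51 (adjusted p = 0.0028). When CKI was added to doxorubicin 2 rose and 1 fell (14.9%). PIGQ, which was among the 5 that fell against CKI, rose there by 2.79 (adjusted p = 3.4e-11 by edgeR). In CKI against the vehicle control 1 rose and none fell (19.5%). In MDA-MB-231, 1 rose and 4 fell of 30 under 5-FU (13.3%), and 3 rose and 1 fell when CKI was added to 5-FU (9.77%). The partners of LYPD3 moved apart from it in CKI plus doxorubicin against CKI, where ITGB4 fell by 1.85 (adjusted p = 7.7e-12) and ITGA6 by 1.28 (adjusted p = 1.3e-14), the subunits of an epithelial laminin receptor, AGR2, a secreted ligand of LYPD3, rose by 2.81 (adjusted p = 9.5e-07), and LYPD3 itself was at 0.12, all by edgeR. Under CKI, AGR2 was at -1.50 against untreated A431, -0.97 against the vehicle control (not called) and -1.29 in MDA-MB-231. Under 5-FU, AGR2 was at -1.45, ITGA6 at -1.20 and ITGB4 at -1.98.

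Among all genes, those whose log2 CPM followed a member most closely over the 15 A431 libraries were DNPH1 (Pearson r = 0.995) and PARVB (0.994) for LY6D, ACTB (0.996) for LY6K, LTBR (0.996) for LY6E, PLCD3 (0.97) for LYPD3, ETV7 (0.99) for LYPD1, LCN12 (0.911) for SLURP1, MOSPD1 (0.996) for CD59 and TRPC4AP (0.994) for PSCA. Between members, LY6D had r = 0.91 with LY6E, 0.90 with LY6K, 0.76 with PSCA, -0.17 with LYPD3, -0.70 with LYPD1 and -0.98 with CD59, and PSCA had -0.94 with LYPD1. These values describe 15 libraries that share 5 groups and carry no test.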

How the data were processed

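RNA-seq counts were analysed for 27 libraries in 9 groups, assigned from the sample labels. The deposited table held raw read counts for each gene, as made by the authors, which per the labels came from reads trimmed with Trim Galore 0.3.7 and aligned with STAR 2.5.3a to hg19 (GRCh37), from unstranded paired-end libraries. The counting tool and its annotation are not given in the sources used here. Of 24566 rows, 24422 were named through a RefSeq table (GRCh38.p14, used for names and promoter sequence). Positions, exon lengths and GC content came from a GENCODE annotation of GRCh37.

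Groups were compared by differential expression analysis in edgeR 4.0.16 under R 4.3.3 (TMM, filterByExpr, glmQLFit and glmQLFTest) in 1 fit per line, or 1 fit over both lines for comparisons between them, with Benjamini-Hochberg adjustment over all genes tested and thresholds of 0.05 for the adjusted p and 1 for the absolute log2 fold change. The fits were tested on simulated data. Log2 CPM used a prior count of 2. Group means are CPM with their SD.

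The 8 genes and the lists of related genes were chosen with earlier results of these data known. The 8 genes were to be named in every comparison, with values for those tested. Of each list, the genes named were taken from up to 2 differentially expressed genes of largest change in each direction per comparison. LYPD3's partners were chosen regardless of their result and are given for some of the comparisons. AGR3, also on that list, did not pass the filter. GPR39, JRK and LNCOC1 were added after their overlap with members was seen. LY6D, LY6E and CD59 also share exon bases with other genes. The shared stretch is 216 bp with an antisense lncRNA for LY6D and 88 bp with the antisense LY6E-DT for LY6E. For CD59 it is 629 bp with a protein-coding gene on the same strand. The part of shared reads in their counts was not tested. LY6D was not tested against groups that the selection used. Same-numbered libraries did not deviate together (correlations from -0.14 to 0.07), so the number was not used as a pair. No 2 replicates agreed within sampling noise. Alternatives were DESeq2 1.42.0, RLE factors, library size alone, no filter, adjusted p alone, the compared groups alone, the replicate block, 1 row per Ensembl ID, GC offsets (lowess, span 0.3) and leaving out each replicate. Sequences of the other 5 members are not shown. The summed level of the blood cell marker list is not reported here.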

Additional observations from a re-analysis of the deposited data

Results flagged for a closer look

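LY6K was singled out because its response to CKI in MDA-MB-231 differed with and without 5-FU, with an interaction of -1.45 on the log2 scale (adjusted p = 0.002 by edgeR) that is the difference between -1.10 for CKI beside 5-FU and 0.36 for CKI alone. LYPD1 was singled out because it was lower by more under CKI in A431 than in MDA-MB-231, with an interaction of -1.67 (adjusted p = 0.031 by edgeR) that rests on 4 counts in the A431 CKI group. LY6D and LY6K were singled out because CKI went with lower levels against untreated A431 and with higher levels beside doxorubicin, without overlap between libraries. Their doxorubicin effects with and without CKI differed by 3.81 and 2.10 on the log2 scale. These differences were not tested, because they contain the contrast that selected the genes.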

How the results depend on the processing

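The tested results of LY6D kept direction and call in every alternative, from -3.61 to -3.21 on the log2 scale for CKI plus doxorubicin against CKI and from -2.0 to -1.71 for CKI against vehicle control. Of 1483 values recomputed under alternatives, 17 tested ones turned direction, 16 of them from values within 0.25 of 0, and SLURP1 for cell line by CKI turned from -1.27. In the untested doxorubicin contrast LYPD3 turned to 0.03 with library size alone and SLURP1 to 0.24 against the vehicle control. By the adjusted p alone, the members called rose to 6 (CKI against untreated A431), 7 (CKI against vehicle control), 4 (vehicle control against untreated), 5 (CKI plus doxorubicin against doxorubicin), 2 (CKI against untreated MDA-MB-231), 4 (5-FU against untreated), 2 (CKI plus 5-FU against CKI), 2 (CKI by 5-FU) and 3 (cell line by CKI). With the compared groups alone, LYPD1 was under the filter in the first 3 of these and SLURP1 in those with the vehicle control, and the counts there were 0, 1 and 0. For cell line by CKI, where LYPD1 passed the filter, LY6K joined it and 2 were called. With library size alone 2 were called under 5-FU and 2 for cell line by CKI, and DESeq2 called 0 in the latter. The count ran from 0 to 1 for vehicle control against untreated, from 0 to 1 for 5-FU and from 0 to 2 for cell line by CKI when single libraries were left out. The replicate block changed no count of members called (5 of 8 for CKI plus doxorubicin against CKI).

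The LY6D difference between doxorubicin and untreated A431 was -7.02 with library size alone, -6.91 with GC offsets and -6.42 against the vehicle control. Library size alone moved the median of all genes by 0.34 there, by 0.21 for CKI plus doxorubicin against CKI, by 0.11 for CKI against untreated and against vehicle control, and by 0.13 for 5-FU, and GC offsets by 0.17. With GC offsets LY6E turned to 0.05 (CKI against untreated A431), -0.14 (the same in MDA-MB-231) and 0.25 (cell line by CKI), PSCA to 0.17 (vehicle control against untreated) and LYPD3 to 0.10 (cell line by CKI), for causes that were not tested. Leaving out single libraries gave -0.12 to 0.04 for LY6K (vehicle control), -0.04 to 0.01 for CD59 (CKI plus doxorubicin against doxorubicin), -0.09 to 0.12 for LY6E (CKI in MDA-MB-231), -0.06 to 0.13 for LYPD3 and -0.07 to 0.21 for LYPD1 (CKI plus 5-FU against CKI), and -0.35 to 0.17 for LYPD3 and -1.75 to 0.57 for SLURP1 (cell line by CKI). Depth limits LYPD1 and SLURP1 in A431 and LY6D, SLURP1 and PSCA in MDA-MB-231, where most libraries held under 15 counts.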
